A study of Mus musculus with 6 samples.

Results

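The galectin family genes Lgals1, Lgals3, Lgals4, Lgals8 and Lgals9 and the gene of the galectin-3-binding protein, Lgals3bp, were followed in the mouse hippocampus after cerebral hypoperfusion. These 6 genes were matched by symbol among the 54752 genes in the count tables, and the set was chosen with earlier results of these data known. Each library was made from the right hippocampus of 1 mouse, taken whole, with 3 sham mice and 3 mice with bilateral carotid artery stenosis (BCAS). All were wild-type male C57BL/6 mice (C57BL/6 J in the methods of the study) aged 14 weeks, sampled 3 weeks after surgery. In BCAS mice a microcoil narrowed each common carotid artery, with the tighter coil on the right side, and sham mice had the same surgery without coils. The comparison asks how the transcripts of this family differ in the hippocampus once blood flow has been restricted for weeks, and the tighter right side limits it to the more severely narrowed hemisphere.

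Galectins are lectins that bind galactose-containing sugar chains on glycoproteins, and most are found in the cytosol as well as outside the cell. Galectin-1 has a single sugar-binding domain, galectin-3 joins such a domain to a flexible tail that lets it form oligomers, and galectin-4, galectin-8 and galectin-9 carry a pair of linked domains. Galectin-3 is known as a product of activated microglia and macrophages, galectin-9 as a ligand of the receptor TIM-3, and galectin-3 and galectin-8 as sensors of damaged lysosomes and endosomes. Lgals3bp is not a galectin: it encodes a secreted, heavily glycosylated scavenger-receptor protein that galectin-3 binds and that interferons induce.

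Promoter sequences of the 3 members with the largest changes are shown because all were up-regulated and because Lgals9 and Lgals3bp are known interferon targets. RefSeq promoters (build GRCm38.p6), 250 bases before to 50 bases after the annotated start, were matched for 5 of the 6 members, all but Lgals1. The Lgals9 promoter lies at chr11:78984875-78985174 on the minus strand, the Lgals3bp promoter at chr11:118401910-118402209 on the minus strand and the Lgals3 promoter at chr14:47373610-47373909 on the plus strand. Each is printed 5′ to 3′ in the direction of its gene. Capitals mark the interferon-stimulated response element (ISRE) core (GAAA, 2 bases of any kind and GAAA) or a related motif (AAA, 2 bases of any kind and GAAAC) in Lgals9 and Lgals3bp, and the GC box GGGCGG in Lgals3, on either strand.
Lgals9: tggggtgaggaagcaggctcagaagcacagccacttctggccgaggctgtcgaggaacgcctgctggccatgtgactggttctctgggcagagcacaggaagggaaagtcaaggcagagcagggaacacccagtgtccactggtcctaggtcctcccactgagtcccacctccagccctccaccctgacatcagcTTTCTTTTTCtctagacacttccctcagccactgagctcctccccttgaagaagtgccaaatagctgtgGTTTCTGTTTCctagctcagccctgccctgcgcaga
Lgals3bp: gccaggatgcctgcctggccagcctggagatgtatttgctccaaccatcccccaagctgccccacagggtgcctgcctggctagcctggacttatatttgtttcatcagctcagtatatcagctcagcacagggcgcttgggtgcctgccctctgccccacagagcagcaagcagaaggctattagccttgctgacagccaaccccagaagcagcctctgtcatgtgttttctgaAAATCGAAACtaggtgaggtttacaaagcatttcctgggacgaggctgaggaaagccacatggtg
Lgals3: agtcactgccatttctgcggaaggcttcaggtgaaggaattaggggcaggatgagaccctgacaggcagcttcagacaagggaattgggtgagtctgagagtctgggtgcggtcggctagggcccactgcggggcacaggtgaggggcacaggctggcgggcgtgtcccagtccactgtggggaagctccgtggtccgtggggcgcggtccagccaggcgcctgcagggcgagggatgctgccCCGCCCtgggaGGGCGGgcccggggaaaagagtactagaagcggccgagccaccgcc

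The Lgals9 window held 2 matches to the ISRE core, both on the strand opposite to the gene. These were TTTCTTTTTC at -55 to -46 and TTTCTGTTTC at 16 to 25, counted from the annotated start with the first transcribed base as 1. The core was present on either strand in 3.44% of 32851 RefSeq promoters of the same length. The Lgals3bp window held no match to this core, and it held AAATCGAAAC at -15 to -6, a match to the related motif. That motif was added to the search after the Lgals3bp sequence had been read, and it occurs in 2.24% of the promoters. It also matches in Lgals9, at 15 to 24, where it overlaps the second ISRE core. In Lgals3 neither was found, and the window held the GC box on both strands, at -7 to -2 and at 5 to 10, letters present in 35.7% of promoters. The GC content was 67.0% in the Lgals3 window, 58.0% in Lgals9 and 55.0% in Lgals3bp. The interferon-gamma-activated site TTCNNNGAA (8.30% of promoters), the AP-1 site TGANTCA (7.81%) and the E-box CACGTG (7.15%) were not found in any of the 5 member promoters. The letters of the NF-kappa B site, GGG and CC with 5 bases of any kind between them, are in 50.8% of promoters and matched in Lgals3, Lgals4, Lgals8 and Lgals9. The Lgals3 and Lgals8 windows lie inside the annotated spans of their genes, and bases upstream of these windows were not searched. A match describes the letters only, and no binding was measured here.

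All libraries held 29652456 to 35607098 counts. Levels are given as CPM, counts scaled to library size with edgeR's TMM factors, which were 0.964 to 0.984 in sham and 1.01 to 1.05 in BCAS libraries. The quasi-likelihood test of edgeR was run over the 18617 genes that passed its filter on low counts, among them all 6 members. A gene was called differentially expressed (DEG) when its fitted log2 fold change was beyond 1 in either direction at an adjusted P below 0.05. The edgeR P values weigh the difference between groups against the spread between the mice of a group. An exact two-sided permutation test of 3 against 3 mice cannot go below P = 0.1. Since whole tissue was sequenced, more cells of a type and more RNA per cell cannot be told apart.

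Lgals3bp, Lgals3, Lgals9 and Lgals1 were higher in BCAS mice and passed both thresholds. Up-regulated DEGs were thus 4 of the 6 members, beside 8.47% of all tested genes, and none was a down-regulated DEG, beside 0.999%. Lgals8 was higher by a smaller amount that did not reach the fold threshold. For Lgals4 no difference was detectable. Thus 5 of the 6 members had an adjusted P below 0.05 and were higher in BCAS mice, beside 18.0% of all tested genes. None was lower at that threshold, beside 13.2%. Every BCAS mouse lay above every sham mouse for 5 of the 6 members, as was the case for 25.3% of all tested genes.

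**Figure D1:**
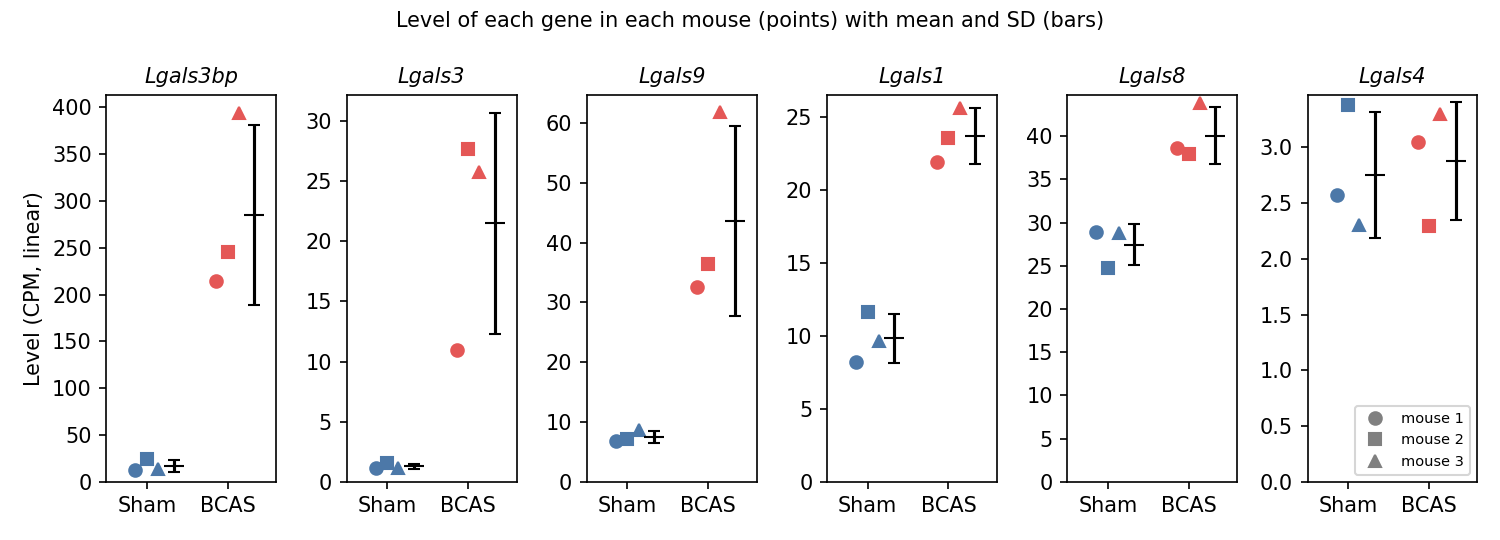
Levels of the 6 genes in each mouse, in CPM on linear axes from 0, with 1 panel per gene. Points are mice, marked by replicate number, and bars give the mean and SD of 3 mice. All BCAS points lie above all sham points except for Lgals4, where sham mice span 2.30 to 3.38 CPM and BCAS mice 2.29 to 3.30 CPM.

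Lgals3bp (ENSMUSG00000033880.11) lies on chromosome 11 of mm10 from 118392751 to 118402092 on the minus strand, with 6 exon blocks. Its level was 12.4, 24.2 and 13.3 CPM in sham mice 1 to 3 and 215, 246 and 394 CPM in BCAS mice 1 to 3. Even the lowest BCAS mouse was far above the highest sham mouse, and sham mouse 2 stood above the other sham mice. Group means were 16.6 ± 6.55 CPM in sham and 285 ± 95.9 CPM in BCAS mice (SD, n = 3 each). Lgals3bp rose by 4.10 on the log2 scale, with a standard error of 0.32 and an edgeR adjusted P of 4.43e-05. This was the largest fitted change among the members, close to that of Lgals3. The summed level of 8 choroid plexus markers was also highest among sham mice in sham mouse 2, with 1020, 4190 and 75.9 CPM in sham mice and 6090, 44.8 and 3320 CPM in BCAS mice, and its part in the level of Lgals3bp was not tested. Without sham mouse 2 the log2 fold change of Lgals3bp was 4.47.

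Lgals3 (ENSMUSG00000050335.17) lies on chromosome 14 from 47367751 to 47386160 on the plus strand, with 8 exon blocks. It was the scarcest member in sham mice, with 39, 52 and 40 counts, or 1.15, 1.56 and 1.17 CPM. In BCAS mice the levels were 11.0, 27.7 and 25.8 CPM, so BCAS mouse 1 was the lowest of its group and still above all sham mice. On average this was 1.29 ± 0.230 CPM in sham against 21.5 ± 9.19 CPM in BCAS mice (SD, n = 3 each). The fitted rise of Lgals3 was 4.05 on the log2 scale, with a standard error of 0.36 (adjusted P = 9.36e-05 with edgeR). Among BCAS mice the coefficient of variation was 42.7%, the highest of the 6 members.

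Lgals9 (ENSMUSG00000001123.15) lies on chromosome 11 from 78962974 to 78984946 on the minus strand, with 11 exon blocks. Its level was 6.79, 7.09 and 8.63 CPM in sham mice and 32.6, 36.5 and 61.9 CPM in BCAS mice. The groups were well apart, and BCAS mouse 3 was the highest, as for Lgals3bp. Averages were 7.50 ± 0.987 CPM in sham and 43.7 ± 15.9 CPM in BCAS mice (SD, n = 3 each). Lgals9 thus rose by 2.54 ± 0.24 (standard error) on the log2 scale, at an edgeR adjusted P of 1.26e-04.

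Lgals1 (ENSMUSG00000068220.6) lies on chromosome 15 from 78926725 to 78930465 on the plus strand, with 5 exon blocks. It was measured at 8.23, 11.6 and 9.62 CPM in sham mice and at 21.9, 23.5 and 25.6 CPM in BCAS mice. The BCAS mice were close to each other, with a coefficient of variation of 7.96%. The sham mean was 9.81 ± 1.68 and the BCAS mean 23.7 ± 1.88 CPM (SD, n = 3 each). For Lgals1 edgeR fitted a log2 rise of 1.27 with a standard error of 0.14 (adjusted P = 3.06e-04). The 95% interval of this change, 0.95 to 1.59, includes the fold threshold, and Lgals1 did not pass when the change was tested against that threshold (glmTreat adjusted P = 0.215). The pseudogenes Lgals1-ps1 and Lgals1-ps2 were listed at 0 in all 6 libraries. Reads that align to several places were not counted, so any Lgals1 reads shared with such copies are missing from its level.

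Lgals8 (ENSMUSG00000057554.13) lies on chromosome 13 from 12439415 to 12464944 on the minus strand, with 12 exon blocks. Sham mice had 28.9, 24.7 and 28.8 CPM and BCAS mice 38.6, 37.9 and 43.8 CPM. The groups did not overlap, and the spread within each was small. Lgals8 rose by 0.55 ± 0.10 (standard error) on the log2 scale, which passed the test (edgeR adjusted P = 0.00438) without reaching the fold threshold. Exons of Heatr1 on the other strand overlap 4.20% of its exonic bases, where reads that meet both genes were not counted.

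Lgals4 (ENSMUSG00000053964.17) lies on chromosome 7 from 28833854 to 28841708 on the plus strand, with 8 exon blocks. Galectin-4 is best known from gut epithelium and from transport in neuronal axons. It had 2.57, 3.38 and 2.30 CPM in sham mice and 3.05, 2.29 and 3.30 CPM in BCAS mice, and the groups overlapped over nearly their whole range. It was lowest in sham mouse 3 and BCAS mouse 2, the mice with the lowest sums of the choroid plexus markers (75.9 and 44.8 CPM), whose part in the level of Lgals4 was not tested. The log2 fold change was 0.07 (95% interval -0.48 to 0.62, edgeR adjusted P = 0.864), so the direction of any change was not resolved.

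**Figure D2:**
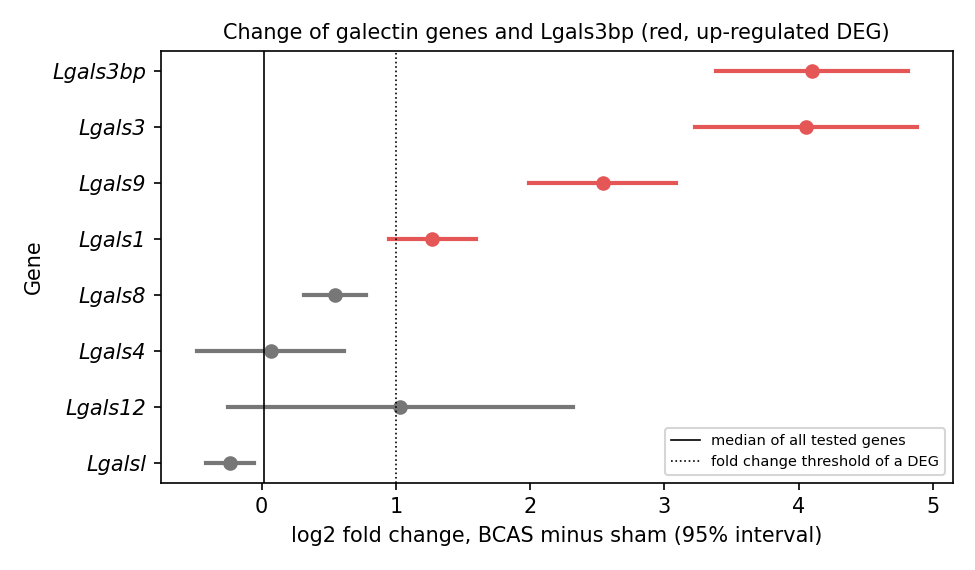
Fitted log2 fold changes of the 6 members and of Lgals12 and Lgalsl, with 95% intervals. The solid line is the median of all tested genes, 0.018, and the dotted line the fold threshold of 1. Lgals3bp, Lgals3, Lgals9 and Lgals1 are the up-regulated DEGs, and only the interval of Lgals1 among them reaches below the threshold.

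Of 7 other galectin symbols listed, 5 were in the tables and 2 of these were tested. Lgalsl, the galectin-like gene without sugar binding, was the most abundant in CPM, with 87.2, 87.4 and 80.6 CPM in sham mice and 69.7, 78.7 and 68.1 CPM in BCAS mice. Its groups did not overlap, and its log2 fold change of -0.24 just missed the threshold (95% interval -0.42 to -0.06, edgeR adjusted P = 0.0506). It passed 0.05 with DESeq2 (adjusted P = 0.0388), RLE normalization (0.0433), halved counts (0.0499) and without BCAS mouse 2 (0.0140), and over the alternatives the adjusted P ran from 0.0140 to 1. Lgals12, known from fat cells, had 4 to 26 counts in sham mice and 23 to 39 counts in BCAS mice, with overlapping groups and an interval from -0.25 to 2.32 (edgeR adjusted P = 0.200). Lgals2 had 0 to 14 counts and Grifin 2 to 8 counts per library, and Lgals7 had 5 counts in BCAS mouse 3 and 0 in each of the other libraries. Where a gene had 0 counts, the upper limit of 3 counts corresponds to 0.0875 to 0.0995 CPM, which covers counting error only.

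Levels of the 6 members were compared per kilobase of exon. Among them Lgals1 led in sham mice with 10.9 ± 1.86 CPM per kb (SD, n = 3), below the 20.7 ± 0.948 CPM per kb of Lgalsl. Next came Lgals8 with 7.45 ± 0.658, Lgals3bp with 5.84 ± 2.30 and Lgals9 with 3.51 ± 0.462 CPM per kb, of which Lgals8 and Lgals3bp overlapped between mice. Lgals4 with 1.19 ± 0.243 and Lgals3 with 0.695 ± 0.124 CPM per kb were the lowest. In BCAS mice the order was different. Lgals3bp led with 100.1 ± 33.7 CPM per kb, and its lowest mouse, at 75.4, was above every other member. Lgals1 with 26.2 ± 2.09 and Lgals9 with 20.4 ± 7.44 CPM per kb overlapped, as did Lgals3 with 11.6 ± 4.94 and Lgals8 with 10.9 ± 0.879 CPM per kb. Lgals4 came last with 1.24 ± 0.228 CPM per kb. The order of the group means was the same with the length of the longest coding transcript in place of all exons, although Lgals3bp and Lgals9 then overlapped in sham mice.

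The summed level of the 6 genes was 26.2, 33.6 and 28.8 CPM per kb in sham mice and 133, 156 and 223 CPM per kb in BCAS mice, a 5.77-fold difference of the means (exact permutation P = 0.1, the smallest possible). For the 5 galectins without Lgals3bp it was 21.9 to 25.1 in sham mice and 57.1 to 84.5 CPM per kb in BCAS mice, a 2.97-fold difference. The make-up of the sum differed as well. Lgals3bp took 16.6%, 25.3% and 16.2% of it in sham mice and 56.9%, 55.4% and 62.1% in BCAS mice. The share of Lgals1 was 36.6% ± 1.71 in sham and 15.9% ± 2.86 in BCAS mice, and that of Lgals8 was 25.6% ± 5.16 and 6.60% ± 1.28 (SD, n = 3 each). Lgals3 took 2.34% ± 0.157 in sham and 6.76% ± 2.61 in BCAS mice, and Lgals4 4.01% ± 0.484 and 0.756% ± 0.205. The share of Lgals9 was 12.1%, 9.87% and 14.0% in sham mice, a range that held all BCAS mice (11.8% ± 1.04). Among the 5 galectins alone, Lgals9 took 14.8% ± 1.78 in sham and 28.5% ± 5.06 in BCAS mice, and Lgals3 took 2.92% ± 0.374 and 16.1% ± 5.61, both without overlap. Lgals1 took 45.6% ± 4.84 of this smaller sum in sham and 37.8% ± 4.41 in BCAS mice, with overlapping groups, so its difference was -7.80 percentage points (exact permutation P = 0.2) in place of -20.7 with Lgals3bp in the sum. With counts not divided by length the difference was -9.02 for Lgals1, and for Lgals8 it was -32.4 in place of -19.0 percentage points. In the sum of 6 genes the groups did not overlap for any share but that of Lgals9, each with the smallest exact permutation P of 0.1 (0.12 after adjustment over the 6 shares).

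**Figure D3:**
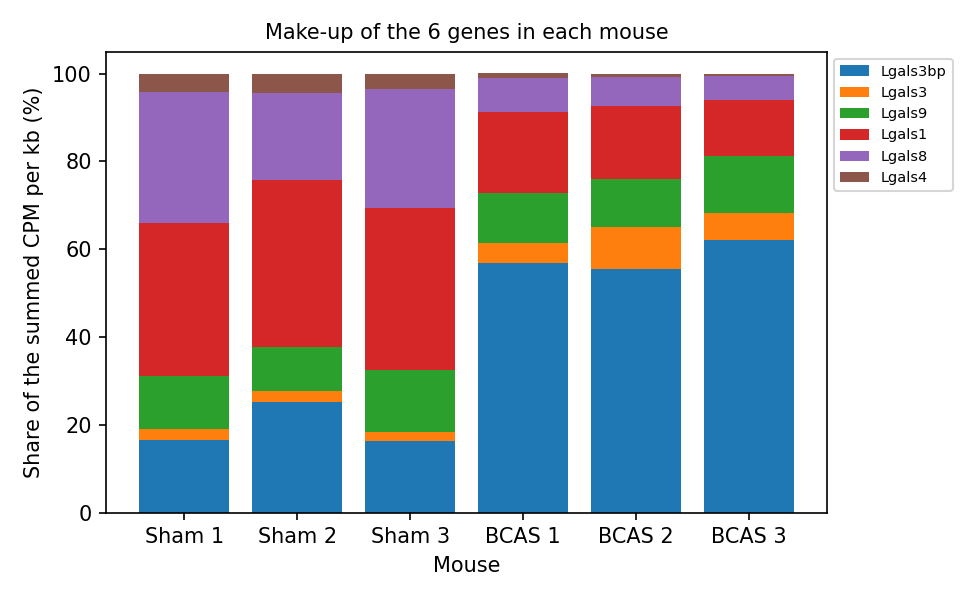
Share of each gene in the summed CPM per kb of the 6 genes, in percent, with 1 stacked bar per mouse. Lgals3bp takes at most 25.3% of a sham bar and at least 55.4% of a BCAS bar, and the shares of Lgals1, Lgals8 and Lgals4 are smaller in every BCAS bar.

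Whether members changed by different amounts was tested on the log2 ratio of each of the 15 pairs within a mouse. For 14 pairs the ratios of sham and BCAS mice did not overlap, each at an exact permutation P of 0.1, or 0.107 after adjustment over the pairs, which this design cannot lower to 0.05. The exception was the pair with the largest changes, Lgals3 and Lgals3bp. Their log2 ratio was -3.63 ± 0.283 in sham and -3.79 ± 0.586 in BCAS mice (SD, n = 3 each, exact permutation P = 0.8). How often ratios of other gene pairs do not overlap was not measured, so the count of 14 describes these pairs only. For Lgals4 against Lgals8 the difference was -0.48 with all mice and -0.24 without sham mouse 2 (exact permutation P = 0.2). Lgals3bp against Lgals9 gave 0.87, 1.77 and 0.62 in sham mice and 2.72, 2.75 and 2.67 in BCAS mice. The SD of this ratio was 0.04 among BCAS mice, the smallest of the 15 pairs. Among sham mice it was 0.603, and sham mouse 2 stood above the other sham mice. The ratio of Lgals1 to Lgals8 had an SD of 0.068 among BCAS mice, so a small spread was not particular to Lgals3bp and Lgals9. Lgals3 against Lgals9 gave -2.56, -2.19 and -2.89 in sham mice and -1.57, -0.40 and -1.26 in BCAS mice, with BCAS mouse 2 the highest.

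Genes with the most similar pattern were sought among 15618 tested genes with a mean of at least 1 CPM, as the smallest root mean square difference of centred log2 CPM over the 6 libraries. For Lgals9 these were Anxa3, an annexin, Lyl1, a transcription factor of blood cells, and Slc7a7, an amino acid transporter, with differences of 0.094, 0.094 and 0.096. For Lgals3 they were Ms4a6c (0.153), Cybb (0.197), the catalytic subunit of the phagocyte NADPH oxidase, and Tmem106a (0.261). For Lgals3bp they were Gm12250 (0.134), Glycam1 (0.170) and H2-Ob (0.181), a chain of the class II modulator H2-O. These 3 were far scarcer, with 0.089 to 0.375 CPM in sham mice, and their fitted log2 fold changes were 4.85, 4.85 and 4.43 against 4.10 for Lgals3bp. Ms4a6c was likewise scarce, with 0.197 CPM in sham mice. The prior count of 2 in the log2 CPM draws such low levels together, so the likeness of these 4 genes is on that scale only. For Lgals1 they were Rai14 (0.084), Chrdl1 and Adgb (0.092 each). For Lgals8 they were E130114P18Rik, Sspn (0.027 each) and Crat (0.034), and for Lgals4 they were Mospd1 (0.059), Pcdhb16 (0.062) and Cfap97d2 (0.073). These measures describe 6 libraries that mainly differ by group.

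Levels of cell type markers were compared in the same way, and 8.47% of all tested genes were up-regulated and 0.999% down-regulated DEGs. The 15 microglial markers, among them P2ry12, Cx3cr1 and C1qa, were all up-regulated DEGs, and their summed level was 463 to 492 CPM in sham mice and 3290, 3610 and 5360 CPM in BCAS mice 1 to 3. Of 10 border macrophage markers 9 were tested and 7 were up-regulated DEGs, with sums of 25.1 to 34.8 CPM in sham mice and 78.6, 91.5 and 129 CPM in BCAS mice. Of 11 monocyte and neutrophil markers 5 were tested and 3 were up-regulated DEGs, with sums of 1.14 to 3.91 CPM and of 6.53, 12.2 and 13.4 CPM. Like Lgals3bp and Lgals9, the microglial sum was highest in BCAS mouse 3, whereas Lgals3 was highest in BCAS mouse 2, at a level close to that of BCAS mouse 3. All of these were lowest in BCAS mouse 1. Of 9 meningeal fibroblast markers 5 were up-regulated DEGs (590 to 1150 CPM in sham and 1380 to 2010 CPM in BCAS mice), and of 10 astrocyte markers 2 were (4720 to 4990 and 9800 to 10300 CPM). Of 12 T and NK cell markers 9 were tested and 7 were up-regulated DEGs, and of 7 B cell markers 5 were tested and 3 were. Endothelial, mural, oligodendrocyte and red blood cell lists held 1 DEG in all. Hippocampal neuron markers were present in every library, with sums of 1170 to 1250 CPM in sham and 535 to 792 CPM in BCAS mice, and 5 of the 9 were down-regulated DEGs. Of 8 general neuron markers none was a DEG, with sums of 6410 to 7170 CPM in sham and 3530 to 5290 CPM in BCAS mice. The part of these cell types in the changes of the members was not tested.

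Set against the summed microglial markers, the members parted. The mean of the sum itself was 8.5-fold higher in BCAS mice, so a gene with no change is lower in this ratio. How many of all tested genes are lower in it was not measured, so the values describe the members only. The log2 ratio of Lgals3bp to this sum was -5.31, -4.26 and -5.19 in sham mice and -3.94, -3.88 and -3.76 in BCAS mice, a difference of 1.06 (exact permutation P = 0.1). For Lgals3 the difference was 0.90, and the groups overlapped, since sham mouse 2 had -8.22 and BCAS mouse 1 had -8.23 (exact permutation P = 0.2). Without BCAS mouse 2 it was 0.59 (exact permutation P = 0.3). Lgals9 was lower relative to the sum, with -6.18, -6.03 and -5.82 in sham mice and -6.66, -6.63 and -6.43 in BCAS mice, a difference of -0.57 (exact permutation P = 0.1). This direction depended on the markers: relative to P2ry12, Tmem119 and Cx3cr1 alone, a choice made after seeing the data, the differences were 1.92 for Lgals3bp, 1.76 for Lgals3 and 0.29 for Lgals9 (exact permutation P = 0.1, 0.1 and 0.2). Lgals1 (-1.77), Lgals8 (-2.51) and Lgals4 (-2.99) were all lower relative to the 15 markers, each without overlap. With the 3 markers their differences were smaller, at -0.92, -1.65 and -2.13. After adjustment over the 6 members the exact permutation P was 0.2 for Lgals3 and 0.12 for the others.

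**Figure D4:**
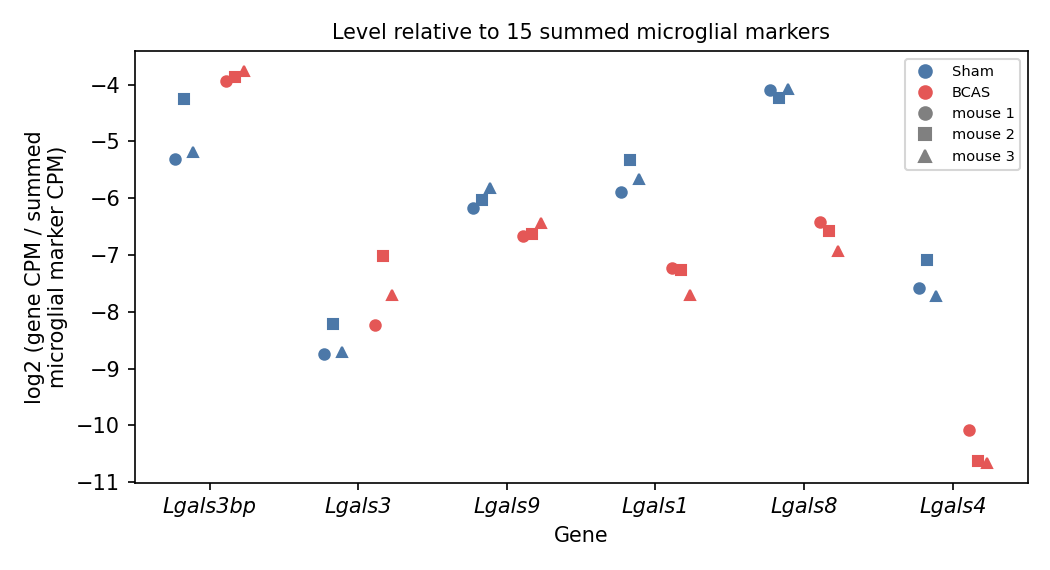
Log2 ratio of each gene's CPM to the summed CPM of 15 microglial markers, with 1 point per mouse, colored by group and marked by replicate number. BCAS points are above sham points for Lgals3bp, overlap with them for Lgals3 and are below them for the other 4 genes.

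Receptors and binding partners of galectins were examined as a list of 28 genes, all tested. Of these, 15 were up-regulated DEGs, and 12 when tested against the fold threshold, beside 8.47% of all tested genes in the main test, and none was down-regulated, with a median log2 fold change of 1.22, beside 0.018 over all tested genes. Lag3, a checkpoint receptor that galectin-3 binds, had the largest change of the list, from 5.60 ± 0.390 to 117 ± 27.8 CPM (SD, n = 3 each; log2 fold change 4.38, edgeR adjusted P = 4.87e-06). Trem2, a lipid-sensing receptor of microglia that also stands among the 15 microglial markers, rose from 10.7 ± 1.36 to 216 ± 41.7 CPM (4.33). Ptprc, which encodes the leukocyte phosphatase CD45, rose by 3.96 on the log2 scale. Havcr2, which encodes TIM-3, rose from 2.87 ± 0.498 to 29.9 ± 10.9 CPM (3.38, edgeR adjusted P = 4.82e-05). Itgam (3.01), the integrin chain CD11b, Cd44 (2.82), a hyaluronan receptor, Tlr4 (2.63), the lipopolysaccharide receptor, and Vsir (2.60), which encodes the checkpoint protein VISTA, followed. Among abundant members that were not DEGs, the lysosomal membrane gene Lamp1 had a log2 fold change of 0.97 (edgeR adjusted P = 3.52e-04), past the threshold with library totals (1.05) and without BCAS mouse 1 (1.03) or 2 (1.01), and the endocytic receptor gene Lrp1 one of 0.66 (0.00253). Bsg had 0.26 (0.168), and Cntn1, a neuronal adhesion molecule, had -0.34 (0.0222), the lowest value of the list.

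Interferon pathway factors were examined as a list of 13 genes, all tested, and their part in the changes of Lgals9 and Lgals3bp was not tested. Of these, 7 were up-regulated DEGs, beside 8.47% of all tested genes, and none was down-regulated, beside 0.999%. Their median log2 fold change was 1.21, beside 0.018 over all tested genes. The transcription factor gene Irf7 had 2.49 ± 0.343 CPM in sham and 49.5 ± 28.7 CPM in BCAS mice (SD, n = 3 each; log2 fold change 4.31, edgeR adjusted P = 1.03e-04). Irf8 rose by 4.02, Irf9 by 1.90 and Irf1 by 1.34 on the log2 scale. Of the receptor genes, Ifngr1 (1.66) and Ifnar2 (1.21) were DEGs, while Ifnar1 had 0.41 and Ifngr2 -0.08. Ifnar2 (glmTreat adjusted P = 0.363) and Irf1 (0.0834) did not pass when tested against the fold threshold, which left 5 DEGs in the list. The kinase genes Jak1 and Jak2 had -0.13 and 0.29, and neither was a DEG.

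Enzymes that build or cap the sugar chains bound by galectins held 4 up-regulated DEGs among 24 tested genes, which is 16.7% beside 8.47% of all tested genes, with a median log2 fold change of 0.17. Gcnt1, which starts branches on O-linked chains, rose from 3.82 ± 1.17 to 23.2 ± 9.12 CPM (SD, n = 3 each; log2 fold change 2.60, edgeR adjusted P = 3.72e-04). B4galt1, which adds the galactose of N-acetyllactosamine, rose by 1.82. The sialyltransferase genes St3gal6 (1.09) and St6gal1 (1.02) were just past the threshold. Both were below it without BCAS mouse 3 (0.96 and 0.92), which left 2 DEGs, or 8.33% of the list. Over all genes that fit had 1306 DEGs of either direction, against 1762 with all mice. St6gal1 was also below the fold threshold without sham mouse 2 (0.94). Mgat5, the branching enzyme that favors galectin binding, had 0.30 (edgeR adjusted P = 0.0158), the bisecting enzyme gene Mgat3 -0.39 (0.00831), Fut8 -0.30 (0.00976) and B4galt6 -0.41 (0.0104). None of these last 4 was a DEG.

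Partners of galectins in the response to damaged lysosomes held 0 DEGs among 28 tested genes with edgeR, and 0 with DESeq2 and limma-voom, beside 8.47% of all tested genes that were up-regulated and 0.999% that were down-regulated DEGs. An adjusted P under 0.05 was reached by 4 genes that were higher, beside 18.0% of all tested genes, and by 3 that were lower, beside 13.2%, and 11 of the 28 had an unadjusted P under 0.05, beside 42.4% of all tested genes. The median was -0.02, with values from -0.58 for Rragb to 0.83 for Tfeb, the regulator of lysosomal genes, both chosen for naming after their values were seen. The abundant genes Sqstm1, an autophagy receptor (-0.17), Map1lc3b, which encodes the autophagosome protein LC3B (0.03), Vcp (-0.01) and Chmp4b, a membrane repair component (-0.04), all had edgeR adjusted P values of 0.190 to 0.961.

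**Figure D5:**
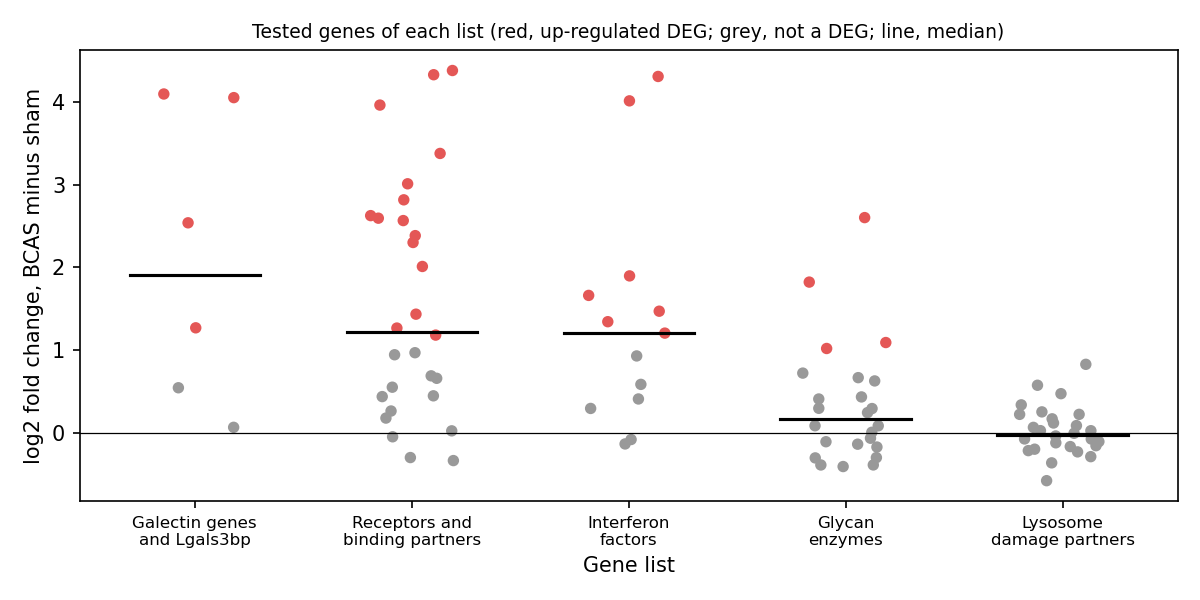
Log2 fold changes of the tested genes of each list, with 1 point per gene and a line at the list's median. Up-regulated DEGs make up 4 of 6 members, 15 of 28 receptors and partners, 7 of 13 interferon factors, 4 of 24 glycan enzymes and 0 of 28 lysosome damage partners.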

How the data were processed

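RNA-seq was carried out on the whole right hippocampus of 3 sham and 3 BCAS mice. After trimming, reads were aligned to mm10 with HISAT2 by the authors, who deposited raw counts per gene. Per the file headers, featureCounts 2.0.3 counted reads over the exons of GENCODE M20, with both mates of a pair counted, strand ignored, and reads on several places or several genes left out. The methods name another featureCounts version and RefSeq genes. Exon lengths are those of the count tables.

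Symbols were matched for 54723 of the 54752 gene IDs. Counts were filtered by filterByExpr, scaled by TMM and tested with edgeR 4.0.16 in R 4.3.3, without a replicate block, with Benjamini-Hochberg adjustment over 18617 genes. Alternatives used DESeq2 1.42.0, limma 3.58.1 (voom), RLE, library totals, other filters, glmTreat, halved counts, a replicate block and each mouse left out. The steps were tested on simulated data. Replicates of a group differed by more than sampling noise. Mice are numbered as in the sample titles, and the count columns of BCAS mice 1, 2 and 3 carry the numbers 2, 3 and 4. The block used the title numbers, which are not stated to pair sham with BCAS mice.

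The 6 members and the gene lists were chosen with earlier results of these data known. Named genes were the members, other galectin genes, in each list the up to 8 DEGs with the largest changes and the up to 4 other genes with the highest mean CPM, and the 3 genes most like each member. Some results under this rule are not reported here. Likeness used log2 CPM with a prior count of 2. Transcript lengths came from GENCODE M21.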

Additional observations from a re-analysis of the deposited data

How the results depend on the processing

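The DEG call of each of the 6 members was the same in every alternative but 1. Tested against the fold threshold with glmTreat, Lgals1 (log2 fold change 1.27, adjusted P = 0.215) no longer passed, so 3 members did, and 818 DEGs remained over all genes, with 2 among the glycan enzymes, 5 among the interferon factors and 12 among the receptors and partners. With a mouse left out, the log2 fold change was 3.79 to 4.47 for Lgals3bp, 3.82 to 4.37 for Lgals3, 2.20 to 2.71 for Lgals9, 1.15 to 1.40 for Lgals1 and -0.05 to 0.24 for Lgals4. The value of Lgals4 was below 0 when sham mouse 3 or BCAS mouse 3 was left out. DEGs over all genes then numbered 1306 to 1976, the lowest without BCAS mouse 3, and DEGs among the glycan enzymes 2 to 4. The share of Lgals9 differed by -1.24 to 0.834 percentage points, against -0.176 with all mice, and by 13.7 among the 5 galectins alone, where Lgals3bp is left out of the sum. The log2 ratio of Lgals3 to Lgals3bp differed by -0.48 to 0.09. Relative to P2ry12, Tmem119 and Cx3cr1 alone, chosen after seeing the data, Lgals9 differed by 0.29 in place of -0.57. Among lysosome partners, the log2 fold change of Map1lc3b was -0.05 to 0.06 and that of Vcp -0.03 to 0.02 with a mouse left out. The cause was not tested. With library totals, which leave out the TMM factors, the value was 0.07 for Vcp and 0.04 for Chmp4b. Values of other genes were also higher in this setting, with 0.14 against 0.07 for Lgals4 and -0.16 against -0.24 for Lgalsl. Residual correlations of same-numbered mice were 0.036, -0.314 and -0.158, which gave no sign of a pairing by number. With 3 mice per group they cannot exclude a pairing. With a replicate block 1595 genes and 4 members were DEGs, against 1762 and 4 without it. Lgals2, Lgals7 and Grifin did not pass the main filter on low counts, and with no filter beyond 1 count none of the 5 other galectin genes was a DEG.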
